A study of Mus musculus with 15 samples.

Results

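Tfap2a and Tfap2b encode the AP-2 transcription factors alpha and beta, and the stretches of the mouse genome around both genes carried long domains of Polycomb repressive complex 1 (PRC1). The 2 loci were chosen by the peaks measured in this study, as windows of mm9 that held multi-peak domains: chromosome 13 from 40.78 to 40.86 Mb for Tfap2a (80 kb) and chromosome 1 from 19.18 to 19.25 Mb for Tfap2b (70 kb). All peaks that touched a window were taken, which gave 68 of the 30692 peaks of the 5 lists, 32 at Tfap2a and 36 at Tfap2b. Peak number and cover in the windows are therefore descriptions and carry no test. The assignment of each window to its gene came with this choice. An mm9 gene annotation was not used here, so no exon or start site was placed on the peaks.

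Cells were of the mouse embryonic stem cell (ESC) line E14Tg2A, kept undifferentiated in 2i medium with LIF, or were early cardiac mesoderm precursors (MES) made from that line with BMP4, typically at 0.1 to 0.3 ng/ml. Chromatin was immunoprecipitated with 5 ug of antibody against Mel18 in ESCs and against Mel18, Cbx2, Ring1b and RYBP in MES, with 1 peak list for each. The line is a single cell line, and the purity of the MES culture was not checked here because expression data were not used. The series held 15 samples, and the IgG and RNA-seq samples were not analysed here.

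AP-2 factors bind GC-rich DNA as dimers and act in neural crest, surface ectoderm, limb and kidney development, and Tfap2a and Tfap2b overlap in expression in the neural crest. Genes of such lineages are classic Polycomb targets in ESCs and in cells committed to another fate. Ring1b is the E3 ligase of PRC1 that ubiquitinates histone H2A. Mel18 (Pcgf2) is its partner in canonical PRC1, and Cbx2 brings a chromodomain to canonical PRC1. RYBP takes the place of a Cbx protein in variant PRC1, and recruitment of some variant forms is linked to CpG-rich DNA.

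The annotated start regions of both genes are shown because they are the gene ends that PRC1 domains of this kind commonly surround, with each CG dinucleotide in capitals. The sequences are from RefSeq on GRCm38.p6, a later build than that of the peaks, and run from 250 bases before to 50 bases after a start. Positions were not converted between the builds, so these coordinates cannot be laid on the mm9 peaks or windows. Both genes were matched, Tfap2a with 2 starts and Tfap2b with 1.
Tfap2a upstream start, chr13:40734871-40735170, minus strand: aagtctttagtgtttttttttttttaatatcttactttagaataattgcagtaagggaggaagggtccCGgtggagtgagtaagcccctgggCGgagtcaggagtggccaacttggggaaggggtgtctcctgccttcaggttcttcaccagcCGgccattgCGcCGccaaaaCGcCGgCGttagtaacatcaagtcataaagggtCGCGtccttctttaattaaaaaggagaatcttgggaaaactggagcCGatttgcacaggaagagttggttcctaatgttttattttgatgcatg
Tfap2a downstream start, chr13:40733746-40734045, minus strand: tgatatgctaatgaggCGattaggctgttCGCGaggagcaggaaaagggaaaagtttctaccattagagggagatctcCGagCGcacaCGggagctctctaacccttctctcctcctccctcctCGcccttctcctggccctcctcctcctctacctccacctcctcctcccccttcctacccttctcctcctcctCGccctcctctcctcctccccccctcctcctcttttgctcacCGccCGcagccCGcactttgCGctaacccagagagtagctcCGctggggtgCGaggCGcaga
Tfap2b start, chr1:19211804-19212103, plus strand: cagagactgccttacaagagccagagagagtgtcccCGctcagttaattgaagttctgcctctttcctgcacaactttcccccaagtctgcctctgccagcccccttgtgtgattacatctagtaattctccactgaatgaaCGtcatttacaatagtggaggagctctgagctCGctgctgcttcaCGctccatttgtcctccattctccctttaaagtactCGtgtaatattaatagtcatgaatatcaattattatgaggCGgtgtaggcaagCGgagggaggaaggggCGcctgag
The upstream Tfap2a start region held 11 CG dinucleotides, the downstream one 15 and that of Tfap2b 8. Over 32851 RefSeq start regions of the same length the median was 7, with quartiles of 3 and 20, so none of the 3 lay above the upper quartile. Of all start regions, 41.4% held at least as many CG dinucleotides as the upstream Tfap2a region, 34.6% as many as the downstream one and 48.6% as many as that of Tfap2b. The AP-2 consensus GCCNNNGGC, which reads the same on both strands, was in none of the 3 sequences and in 16.6% of all start regions. In the RefSeq gene order Tfap2a lies between Ofcc1 and Gcnt2 and overlaps the non-coding gene Gm26688, and Tfap2b lies between Tfap2d, another AP-2 gene, and Pkhd1.

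Each locus was an isolated block of peaks. Joining peaks of all 5 lists that lay within 10 kb of each other gave 1 domain per window, at chr13:40796012-40840634 for Tfap2a (44623 bp) and at chr1:19195610-19233585 for Tfap2b (37976 bp). Among 10122 such domains in the genome they ranked 21 and 32 by length, and 181 domains reached 20 kb. At Tfap2a the closest other domain lay 98171 bp after the locus and held peaks of Ring1b and RYBP but of no other list, and the closest one before it lay 1743088 bp away. At Tfap2b the closest domain lay 91794 bp before the locus, at chr1:19085817-19103815. That neighbour held peaks of all 5 lists, with 3496 bp of ESC Mel18 cover and 16556 bp of MES Mel18 cover. Whether it lies at Tfap2d was not determined.

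**Figure D1:**
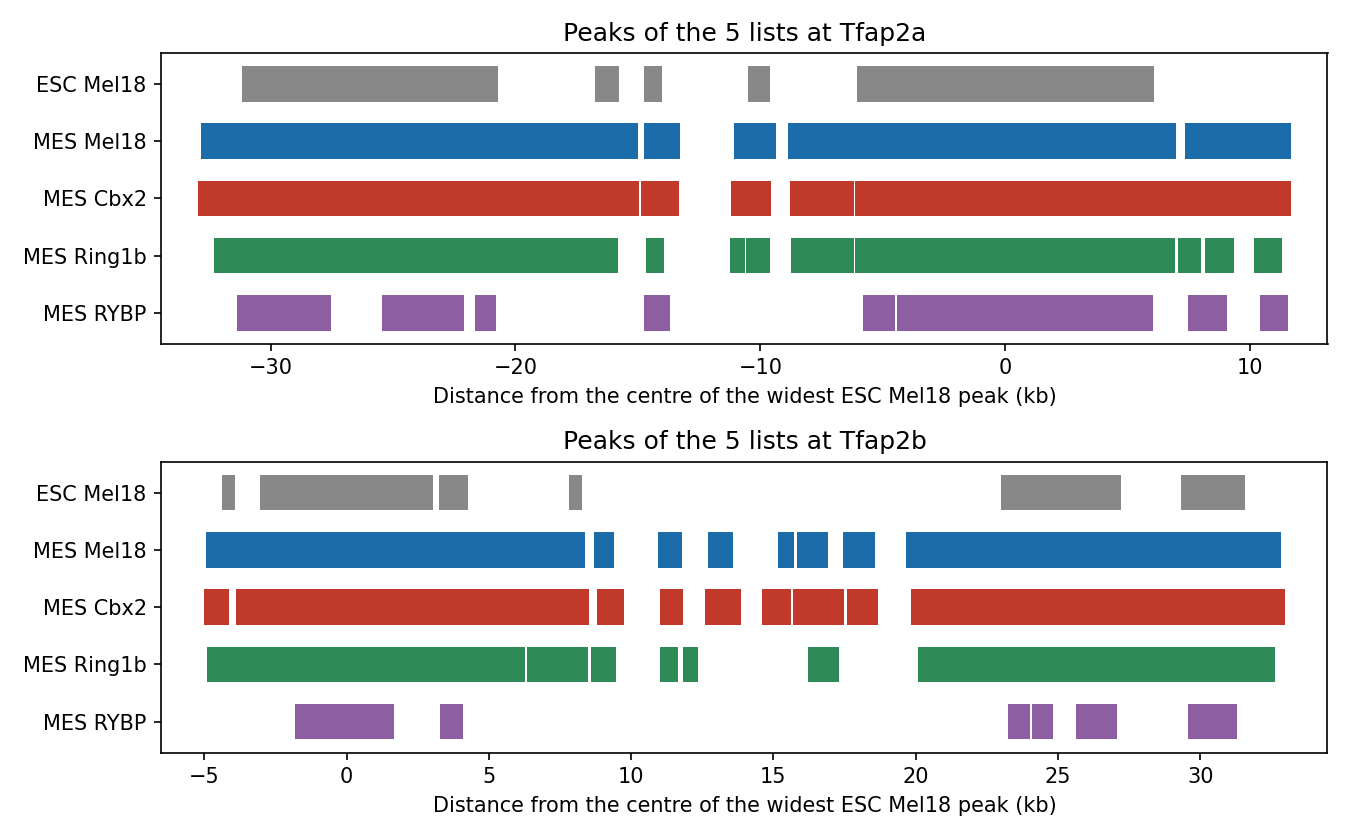
Peaks of the 5 lists at Tfap2a (top) and Tfap2b (bottom), drawn to scale as bars along the distance in kb from the centre of the widest ESC Mel18 peak of each locus. MES Mel18, Cbx2 and Ring1b peaks fill most of each domain, ESC Mel18 leaves a gap of 14733 bp in the middle of Tfap2b, and RYBP has no peak in that gap.

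Mel18 in ESCs lay in separate blocks at both genes. At Tfap2a it had 5 peaks, of which the widest were chr13:40797797-40808252 (10456 bp) and chr13:40822915-40835029 (12115 bp), with 3 peaks of 743 to 964 bp between them. The 12115 bp peak had a score of 3100, a value that 289 ESC Mel18 peaks shared, and the 10456 bp peak scored above 94.9% of that list. The 3 narrow peaks scored 55.1 to 119, above 10.7 to 45.8% of the list. The score is the authors' own value per peak on a scale that was not stated, and it is read here only within a list.

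At Tfap2b ESC Mel18 had 6 peaks and none reached 10 kb. The widest, chr1:19197583-19203647 (6065 bp), also scored 3100. The next widest were chr1:19223615-19227830 (4216 bp) and chr1:19229954-19232195 (2242 bp). These scored above 92.3 and 79.9% of the list, and the remaining 3 peaks were 439 to 1012 bp wide. The ESC peaks of Tfap2b thus formed a left and a right group with 14733 bp free of peaks between them, whereas the longest peak-free stretch between ESC peaks of Tfap2a was 3984 bp.

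In MES, Mel18 peaks covered more of both loci than in ESCs. At Tfap2a the cover was 25159 bp in ESCs and 41226 bp in MES, a ratio of 1.64. At Tfap2b it was 14439 bp in ESCs and 31727 bp in MES, a ratio of 2.20. Both ratios passed the 1.5-fold mark used here, as did 28.3% of the 2363 domains with Mel18 peaks in both states and 50.6% of the 162 such domains of 20 kb or more. A ratio above 1.5 was thus as common as not among long domains, whose median was 1.51 (quartiles 1.26 and 1.88). The ratio of Tfap2b exceeded that of 137 of the 162 long domains, and the ratio of Tfap2a that of 99. As shares of all bases that each list covered in the genome, Tfap2a rose from 0.234 to 0.345% and Tfap2b from 0.134 to 0.265%. With 1 list per state and unknown read depth, neither difference has a replicate check.

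ESC Mel18 sites were kept in MES, and the added cover lay between and beside them. All 5 ESC Mel18 peaks of Tfap2a and all 6 of Tfap2b overlapped a MES Mel18 peak by at least 1 bp. Of the whole ESC list, 52.6% did. Neighbouring peaks of 1 list are not replicates, so such counts carry no interval here. At the level of bases, 99.9% of ESC cover was kept at Tfap2a, all but 17 bp, and 100% at Tfap2b. Full keeping was common: the median over 159 domains of 20 kb or more with all 5 lists was 100%, with a lower quartile of 95%. Sequence under a MES but no ESC Mel18 peak came to 16084 bp at Tfap2a and 17288 bp at Tfap2b.

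The 2 loci differed in where this added cover lay. At Tfap2b, 15480 bp of it (89.5%) fell between the first and last ESC peaks, 565 bp before them and 1243 bp after them. At Tfap2a, 9155 bp (56.9%) fell between ESC peaks, 1682 bp before and 5247 bp after them. The median share between ESC peaks was 69.3% over the 159 long domains (quartiles 42.0 and 82.9%), so Tfap2a lay within the quartiles and Tfap2b above the upper one.

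A pair of wide MES peaks took in the ESC blocks at each gene. At Tfap2a they were chr13:40796115-40813983 (17869 bp) and chr13:40820111-40835942 (15832 bp), and the wider one spanned 2 ESC peaks. At Tfap2b they were chr1:19195672-19209011 (13340 bp), which took in 4 ESC peaks, and chr1:19220266-19233438 (13173 bp), which took in 2. All 4 wide peaks had a score of 3100, shared by 360 MES Mel18 peaks. They made up 81.7% of MES Mel18 cover at Tfap2a and 83.6% at Tfap2b.

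The remaining MES Mel18 peaks were narrower, and 1 at Tfap2a and 6 at Tfap2b had no ESC counterpart. Of the MES Mel18 peaks, 4 of 5 at Tfap2a (80.0%) and 2 of 8 at Tfap2b overlapped an ESC Mel18 peak. The share over the whole MES list was 66.3%. With the lower-scoring 50% of both lists left out, 2 of 4 MES Mel18 peaks overlapped an ESC Mel18 peak at each gene. This cut took peaks from both lists. It left 4 of 5 MES Mel18 peaks at Tfap2a and 4 of 8 at Tfap2b. Of the ESC Mel18 peaks it left 2 of 5 at Tfap2a and 4 of 6 at Tfap2b. The MES Mel18 peaks removed at Tfap2b all lacked an ESC counterpart, so the 2 of 8 rests in part on lower-scoring peaks. At Tfap2a the MES peak chr13:40817887-40819613 stayed in, at rank 2083 of 4165 by score. Its ESC partner chr13:40818482-40819362 (score 119) was left out. The 6 small peaks of Tfap2b lie in 1 stretch and are not independent sites. The single peak without an ESC counterpart at Tfap2a, chr13:40836295-40840628, was 4334 bp wide and scored above 75.3% of its list.

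At Tfap2b the 6 MES-only peaks all lay in the 14733 bp free of ESC peaks, at chr1:19208882-19223614. They were chr1:19209296-19210018, chr1:19211547-19212385, chr1:19213325-19214208, chr1:19215793-19216349, chr1:19216434-19217523 and chr1:19218053-19219173. Their widths ran from 557 to 1121 bp and came to 5214 bp in all. The one from 19211547 scored above 62.8% of the MES list, and the others above 23.5 to 51.0%. With the edges of the 2 wide peaks, MES Mel18 covered 59.0% of that stretch.

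In MES, peaks of Mel18, Cbx2 and the catalytic Ring1b covered similar amounts of sequence at both genes, and RYBP peaks covered less. Of the bases under a Mel18 or a Ring1b peak, 89.8% at Tfap2a and 84.6% at Tfap2b were under both. For Cbx2 and Ring1b these shares were 90.6 and 81.5%. At Tfap2a, Cbx2 peaks covered 41624 bp and Ring1b peaks 37804 bp, beside 41226 bp for Mel18, while RYBP peaks covered 23656 bp. At Tfap2b, Cbx2 peaks covered 33343 bp and Ring1b peaks 28948 bp, beside 31727 bp for Mel18, while RYBP peaks covered 8978 bp. Cbx2 and Mel18 differed by ratios of 1.01 and 1.05, and which of them covered more depended on the peaks taken. Ring1b to Mel18 stood at 0.917 and 0.912, close to the median of 0.931 over 168 long domains.

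**Figure D2:**
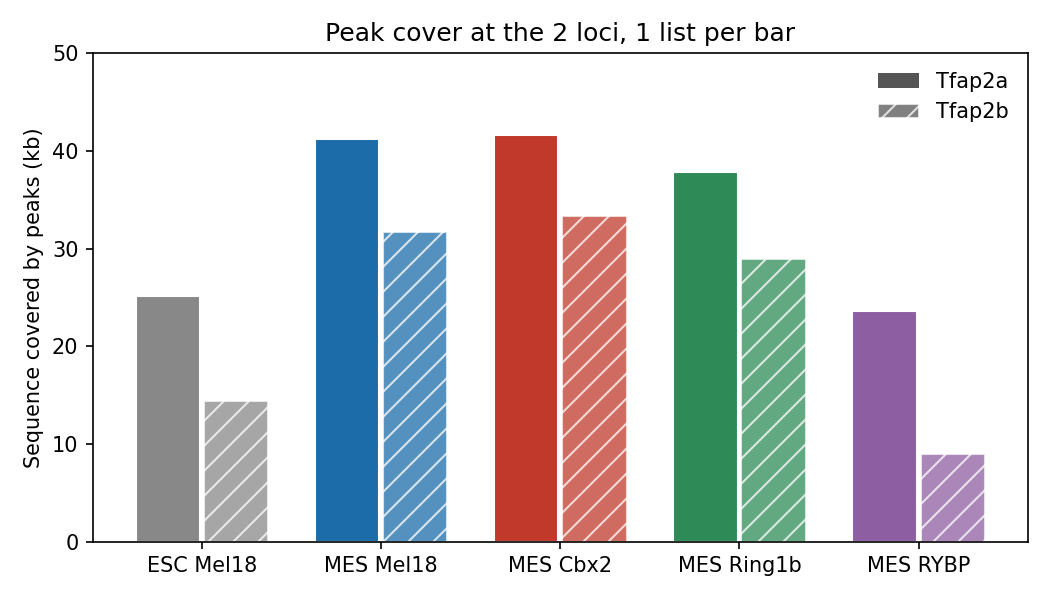
Sequence covered by peaks (kb) in each of the 5 lists at Tfap2a (plain bars) and Tfap2b (hatched bars), with 1 list and no error per bar. MES Mel18, Cbx2 and Ring1b stand above ESC Mel18 at both genes, and RYBP has the lowest cover, 23656 bp at Tfap2a and 8978 bp at Tfap2b.

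Cbx2, which reads methylated histone tails through its chromodomain, followed Mel18 most closely. Cbx2 peaks covered 99.1% of MES Mel18 bases at Tfap2a and 97.3% at Tfap2b, against a median of 97.7% over the 159 long domains. All 5 MES Mel18 peaks of Tfap2a and all 8 of Tfap2b overlapped a Cbx2 peak, against 73.3% of the whole MES Mel18 list. The widest Cbx2 peaks were chr13:40796012-40814006 (17995 bp) at Tfap2a and chr1:19220466-19233585 (13120 bp) at Tfap2b. Cbx2 had 5 peaks at Tfap2a and 9 at Tfap2b. Each gene had 1 more peak of over 10 kb that shared the score of 3100, at chr13:40822848-40840634 (17787 bp) and chr1:19196729-19209137 (12409 bp).

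Ring1b was split into more peaks at Tfap2a and met fewer of the narrow Mel18 peaks at Tfap2b. It had 9 peaks at Tfap2a and 7 at Tfap2b, the widest being chr13:40796649-40813148 (16500 bp) and chr1:19220701-19233250 (12550 bp). The other Ring1b peaks with a score of 3100 were chr13:40822841-40835921 (13081 bp) and chr1:19195704-19206883 (11180 bp). Ring1b covered 90.7% of MES Mel18 bases at Tfap2a and 87.6% at Tfap2b, with a median of 87.4% over the long domains. It overlapped all 5 MES Mel18 peaks of Tfap2a and 5 of 8 at Tfap2b, against 81.2% of the MES Mel18 list. In the flank of Tfap2a where 1 MES Mel18 peak of 4334 bp lay, Ring1b had 3 peaks of 948 to 1197 bp.

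The outer limits of Mel18, Cbx2 and Ring1b in MES nearly coincided. At Tfap2b their first peaks began within 94 bp of each other and their last peaks ended within 335 bp. At Tfap2a the first starts lay within 637 bp and the last ends within 352 bp. Over 165 long domains with these 3 lists, the median spread was 1200 bp for the first start and 1416 bp for the last end. The spread of first starts was narrower in 6 of these domains than at Tfap2b and in 42 than at Tfap2a, and that of last ends in 17 and 18. The ESC Mel18 peaks of Tfap2a ended at 40835029, 5605 bp short of the last MES end, at 40840634. Edges depend on the caller's settings, which the sources used here do not give.

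RYBP peaks covered a part of each domain. Lower cover than Mel18 was general for this list: over 181 long domains its median was 31.1%, against 62.4% for MES Mel18. RYBP covered 53.0% of the Tfap2a domain, above the upper quartile of 43.4%, and 23.6% of the Tfap2b domain. Depth was unknown, so a smaller RYBP extent cannot be told apart from weaker detection. Its widest peaks were chr13:40824547-40835025 (10479 bp) at Tfap2a, which ranked 10 by width and 172 by score among 7614 RYBP peaks, and chr1:19198808-19202288 (3481 bp) at Tfap2b, which ranked 394 and 885. RYBP to Mel18 cover in MES stood at 0.574 at Tfap2a and 0.283 at Tfap2b. Both were at least 1.5-fold lower than Mel18 cover, as were 65.7% of 166 long domains with both lists, whose median was 0.575. Tfap2a was thus at the median, while 157 of the 166 domains had a higher ratio than Tfap2b and 8 a lower one. RYBP peaks overlapped 4 of 5 MES Mel18 peaks at Tfap2a and 2 of 8 at Tfap2b, against 72.4% of the MES Mel18 list.

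The gap between the 2 genes was widest for RYBP. Tfap2a had 2.63 times the RYBP cover of Tfap2b, and 1.25 times its Cbx2, 1.30 times its MES Mel18 and 1.31 times its Ring1b cover. ESC Mel18 stood between, at 1.74 times. At Tfap2b the longest stretch between RYBP peaks was 19121 bp, and RYBP had 0 bp of cover in the 14733 bp free of ESC Mel18 peaks. In that stretch Cbx2 covered 70.3%, MES Mel18 59.0% and Ring1b 42.1%. All 6 narrow MES Mel18 peaks there overlapped a Cbx2 peak, 3 of them a Ring1b peak and 0 a RYBP peak. Over the whole MES Mel18 list the shares were 73.3% for Cbx2, 81.2% for Ring1b and 72.4% for RYBP. Depth was unknown, so RYBP peaks missing there cannot be told apart from peaks below detection.

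RYBP in MES lay mostly on sequence that also had Mel18 peaks in ESCs. At Tfap2b all 8978 bp under RYBP peaks were under ESC Mel18 peaks, and at Tfap2a 86.2% were. The exceptions at Tfap2a included 2 whole peaks in the flank after the last ESC peak, of 1582 and 1124 bp, which scored above 29.0 and 18.2% of the RYBP list. The median share of RYBP bases under ESC Mel18 peaks was 91.5% over the 159 long domains (quartiles 74.8 and 97.7%), and 16 of these domains, Tfap2b among them, had 100%.

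Base by base, the MES subunits sorted into 2 main combinations. All 4 were present over 22940 bp at Tfap2a (54.6% of the 42014 bp under any MES peak) and 8978 bp at Tfap2b (25.8% of 34785 bp). Mel18, Cbx2 and Ring1b without RYBP were present over 14435 bp at Tfap2a (34.4%) and 18440 bp at Tfap2b (53.0%). Mel18 with Cbx2 alone came next, with 2805 and 3463 bp. RYBP was never alone at either gene.

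The 2 combinations differed in ESC Mel18 cover. Of the bases with all 4 subunits, 88.5% at Tfap2a and 100% at Tfap2b lay under an ESC Mel18 peak. Of the bases with Mel18, Cbx2 and Ring1b but no RYBP, 32.6 and 28.3% did. Long domains showed the same order, with medians of 94.5% over 154 domains and 39.2% over 155, so this contrast was not particular to the AP-2 genes. The bases with all 4 subunits were all 8978 RYBP bases at Tfap2b and 22940 of 23656 at Tfap2a. Their share under ESC Mel18 peaks thus largely restates that of RYBP given above. Each value rests on where 1 list's caller set its peak limits, and the depth of each library, which moves those limits, was unknown.

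**Figure D3:**
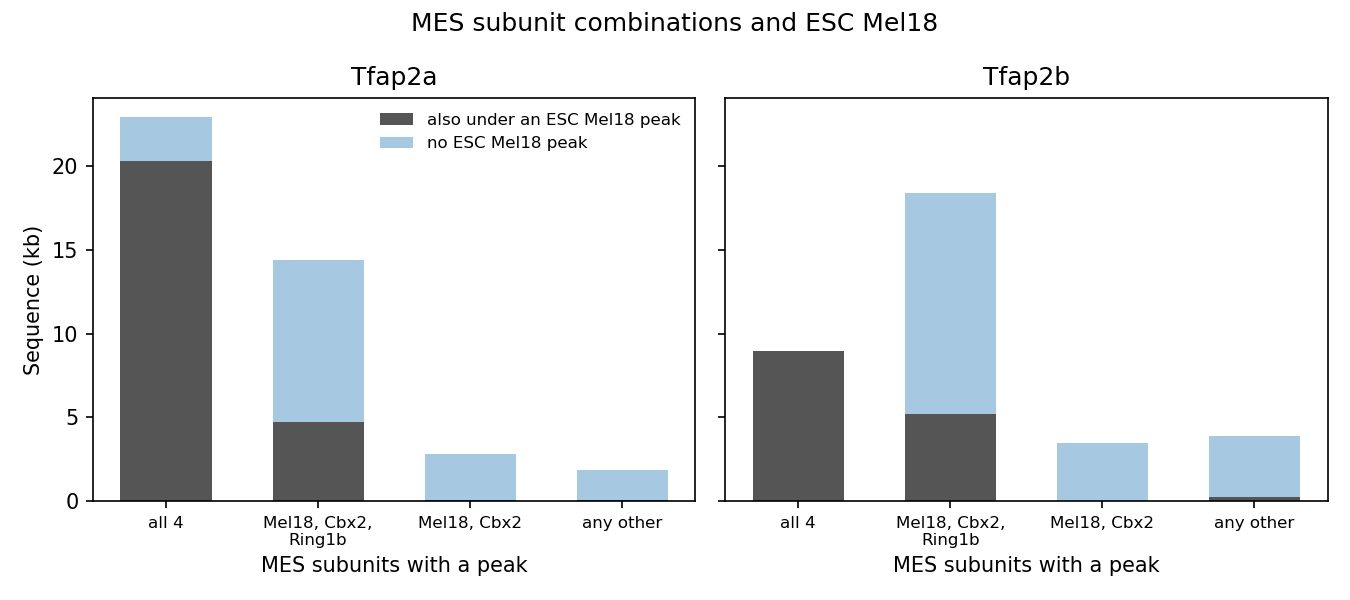
Sequence (kb) under each combination of MES subunits at Tfap2a (left) and Tfap2b (right), divided into bases that were also under an ESC Mel18 peak (dark) and bases that were not (light). Bases with all 4 subunits were 88.5 and 100% dark, and those with Mel18, Cbx2 and Ring1b only 32.6 and 28.3% dark.

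In bins of 5 kb the profiles showed solid cores and a thinner middle. At Tfap2a, 3 bins (40800001-40805000, 40825001-40830000 and 40830001-40835000) were covered at 100% by ESC Mel18, MES Mel18, Cbx2 and Ring1b, and 2 of the 3 also by RYBP. The lowest of the inner bins was 40815001-40820000, where Mel18 cover was 17.6% in ESCs and 48.5% in MES, Cbx2 cover 45.6%, Ring1b cover 33.1% and RYBP cover 5.78%. At Tfap2b no bin was fully covered by ESC Mel18, and its highest was 93.2%, at 19200001-19205000. The bin 19210001-19215000 was the thinnest of the middle for MES Mel18 and Cbx2, at 34.8 and 49.6%, with 23.8% for Ring1b and 0 for ESC Mel18 and RYBP. Both genes thus had 2 arms with peaks in every list and partial MES cover of Mel18, Cbx2 and Ring1b between them. The middle of Tfap2a also held 3 ESC Mel18 peaks and 1 RYBP peak (chr13:40814210-40815289), whereas the 14733 bp stretch of Tfap2b held neither.

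**Figure D4:**
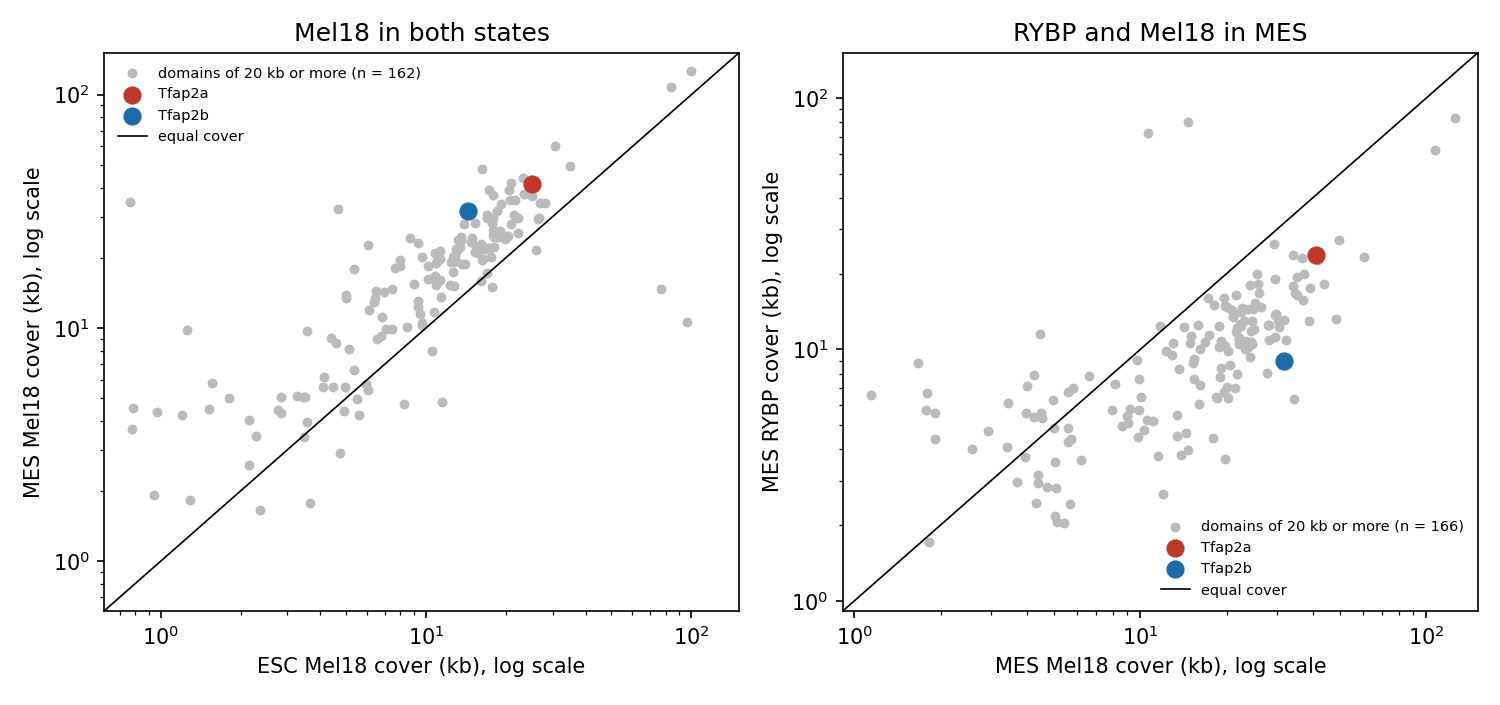
Covered sequence (kb, log scales) in domains of 20 kb or more, 1 point per domain, with Tfap2a in red, Tfap2b in blue and a line of equal cover. Left, MES against ESC Mel18 in 162 domains, where both genes lie above the line; right, RYBP against Mel18 in MES in 166 domains, where Tfap2b (ratio 0.283) lies farther below the line than Tfap2a (0.574).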

How the data were processed

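Peak lists of 5 ChIP-seq samples were used, 1 per group, with groups taken from the labels. The deposited lists give each peak's position and 1 score, the authors' own value, whose scale was not stated. Peak names carry the tag of the MACS caller, per the file headers and names. The build was mm9, and Bowtie and TopHat were named without versions, per the submitters' processing notes. The sources used here give no caller settings, control, pooling of replicates or read depth.

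The members and lists were chosen with earlier results of these data known. Cover is the number of bases under peaks of a list in a window. Starts were converted to count from 1. Peaks of all lists within 10 kb of each other were joined into domains, and a ratio of 1.5 was the mark for the genome-wide share called. Peaks named are the widest and the highest-scoring of each list and every Mel18 peak without a counterpart in the other state. Other AP-2 genes were not analysed here because no mm9 annotation was used. Python 3.11.15, numpy 2.4.6, scipy 1.17.1 and matplotlib 3.10.9 were used. Overlaps of all 20 ordered pairs of lists and the 10122 domains were checked against bedtools 2.31.1, with 0 differences, and the code was tested on simulated data. Alternatives were joining peaks within 1 kb, the upper 50% by score, 3679 peaks per list, equal covered bases (10.8 Mb per list), a narrowed window, an overlap of 50% of the shorter peak, and domain gaps of 5 and 20 kb.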

Additional observations from a re-analysis of the deposited data

How the results depend on the processing

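No paired analysis was possible because no group has over 1 list, and for the same reason no replicate could be left out. The Mel18 ratio of MES to ESC stayed between 1.64 and 1.76 at Tfap2a and between 2.10 and 2.34 at Tfap2b under the 5 alternatives run on cover, and RYBP to Mel18 between 0.461 and 0.574 and between 0.209 and 0.294. The order of Cbx2 and Mel18 cover turned: Cbx2 to Mel18 was 0.967 at Tfap2a in the upper 50% by score, and 0.970 at Tfap2a and 0.977 at Tfap2b with equal covered bases genome-wide. With peaks within 1 kb joined, 100% of MES Mel18 peaks at Tfap2a (2 of 2) overlapped an ESC Mel18 peak, by construction, since joining absorbed the single peak without a counterpart, and at Tfap2b 2 of 4 did, against 2 of 8 as deposited. In the upper 50% by score 2 of 4 did at each gene, against 4 of 5 at Tfap2a and 2 of 8 at Tfap2b over all peaks. The difference between the genes was gone there. At Tfap2b the cut removed MES peaks without an ESC counterpart. At Tfap2a it removed the ESC partner of a kept MES peak, and another MES peak together with its ESC partner. The share of long domains with RYBP cover at least 1.5-fold lower than Mel18 was 40.5% when domains were joined within 20 kb (427 domains) and 82.2% within 5 kb (107 domains). The cause was not tested. Depth was unknown, so small peaks missing from a list cannot be told apart from peaks below detection.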
